A study of Mus musculus with 3 samples.

Results

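The accessible elements of Sox5 and Sox6 were followed peak by peak through 3 stages of forelimb development. Every peak of the 3 deposited single-nucleus ATAC-seq peak lists that overlapped the body of Sox5 or Sox6, or the 2000 bp upstream of it, was taken (mouse genome build mm10). This gave 400 of the 506515 called peaks. Merged where they overlapped by at least 1 bp, they formed 236 of 266531 regions, 141 at Sox5 and 95 at Sox6. By the GENCODE annotation 217 of the 236 regions were intronic, 13 touched an exon and 6 touched a promoter, here 1000 bp before to 100 bp after a transcript start of the basic annotation. A further 4, counted above as intronic or exonic, touched the start of a transcript found in the full annotation alone.

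Sox5 lies on the minus strand of chr6:143828425-144781977 and Sox6 on the minus strand of chr7:115470872-116038796. Regions are named by the distance in kb of their middle from the 5′ end of the annotated gene body. The 3 libraries, 1 a stage (E12.5, E14.5, E16.5), were made from sorted tdTomato+ mesenchymal progenitors (MPs) of mouse forelimbs. All 3 carried the genotype Hic1CreERT2/CreERT2 with Rosa26LSLtdTomato/tdTomato on the C57BL/6J strain, and the dams of all 3 had received 7.5 mg tamoxifen at E10. The label therefore marks cells in which Hic1 drove CreERT2 when tamoxifen was given, together with their descendants. The E16.5 library came from the elbow segment, the distal stylopod and proximal zeugopod, while the labels of the other libraries name the forelimb. E12.5 limbs were digested with Dispase and later limbs with Collagenase A, Pronase and DNase, so stage and digestion cannot be told apart between E12.5 and the later libraries, nor stage and dissected tissue between E16.5 and the earlier ones.

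SOX5 and SOX6 are SoxD transcription factors. They bind DNA through an HMG box, carry no activation domain of their own, and work in cartilage beside SOX9, with which they turn on matrix genes such as Col2a1 and Acan. Both genes are long, with several alternative first exons, and distal enhancers of chondrocytes are known to lie around and within such loci. Both genes are also used outside cartilage, for example in neural, erythroid and melanocyte lineages. In nuclei an open element is read as transposase cut sites. Fewer nuclei with an open element and fewer cuts per open nucleus cannot be told apart in a summed count.

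Sequence is shown for the elements on which the stage and nucleus comparisons turn, namely the shared region of each gene with the highest fold in nuclei with a cartilage-locus count at E16.5, and those with the largest fall and the largest rise (at Sox5 the smallest fall) from E12.5 to E16.5. Sox6 +94.2 kb was added after its values were seen, as the shared region in which a pair of SOX cores facing each other was found. Each line gives the middle 300 bp of the merged region on the plus strand of mm10, read from the GRCm38 assembly. Capitals mark letters found by a search of both strands for the SOX core in its forms ACAAAG, the form ACAATG and the form ACAATA, for AP-1 in the form TGANTCA, RUNX in the form TGTGGT, TEAD in the form GGAATG, the E-box in the form CAGCTG and GLI in the form CCACCCA. An inverted pair is 2 SOX cores on opposite strands with 3 to 5 bases between.
Sox5 +738.6 kb, chr6:144043270-144043569: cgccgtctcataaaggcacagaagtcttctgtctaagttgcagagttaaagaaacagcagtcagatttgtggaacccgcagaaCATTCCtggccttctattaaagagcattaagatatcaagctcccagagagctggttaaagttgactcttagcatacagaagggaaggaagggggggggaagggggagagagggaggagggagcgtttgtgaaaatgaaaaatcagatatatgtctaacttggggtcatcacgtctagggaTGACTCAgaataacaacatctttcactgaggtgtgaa
Sox5 +742.4 kb, chr6:144039454-144039753: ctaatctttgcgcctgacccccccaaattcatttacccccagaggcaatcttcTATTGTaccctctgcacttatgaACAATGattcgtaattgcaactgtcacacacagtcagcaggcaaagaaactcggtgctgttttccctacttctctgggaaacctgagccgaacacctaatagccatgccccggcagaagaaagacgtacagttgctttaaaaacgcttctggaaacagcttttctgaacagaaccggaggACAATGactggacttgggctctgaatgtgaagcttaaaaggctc
Sox5 +707.0 kb, chr6:144074819-144075118: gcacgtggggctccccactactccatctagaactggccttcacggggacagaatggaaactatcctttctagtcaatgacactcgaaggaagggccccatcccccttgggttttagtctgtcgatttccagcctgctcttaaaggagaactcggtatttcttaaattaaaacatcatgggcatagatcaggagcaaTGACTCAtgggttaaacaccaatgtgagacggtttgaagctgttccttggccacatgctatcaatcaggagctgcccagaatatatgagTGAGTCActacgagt
Sox6 +479.5 kb, chr7:115559139-115559438: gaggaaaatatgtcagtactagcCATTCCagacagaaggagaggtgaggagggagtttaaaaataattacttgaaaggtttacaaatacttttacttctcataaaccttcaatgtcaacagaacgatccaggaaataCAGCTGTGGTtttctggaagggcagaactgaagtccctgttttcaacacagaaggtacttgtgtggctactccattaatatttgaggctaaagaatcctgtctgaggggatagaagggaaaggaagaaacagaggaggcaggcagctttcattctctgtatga
Sox6 +550.2 kb, chr7:115488474-115488773: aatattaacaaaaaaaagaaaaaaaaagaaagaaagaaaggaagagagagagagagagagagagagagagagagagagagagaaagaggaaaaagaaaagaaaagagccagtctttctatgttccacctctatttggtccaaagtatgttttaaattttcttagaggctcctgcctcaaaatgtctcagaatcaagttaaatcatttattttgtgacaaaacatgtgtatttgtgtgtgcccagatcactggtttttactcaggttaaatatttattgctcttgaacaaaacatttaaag
Sox6 +367.3 kb, chr7:115671310-115671609: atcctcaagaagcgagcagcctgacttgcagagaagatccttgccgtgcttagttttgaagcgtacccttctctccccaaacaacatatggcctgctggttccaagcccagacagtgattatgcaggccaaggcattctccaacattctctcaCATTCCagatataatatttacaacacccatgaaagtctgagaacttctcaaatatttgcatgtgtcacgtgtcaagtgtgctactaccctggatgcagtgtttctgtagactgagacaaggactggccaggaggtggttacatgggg
Sox6 +94.2 kb, chr7:115944450-115944749: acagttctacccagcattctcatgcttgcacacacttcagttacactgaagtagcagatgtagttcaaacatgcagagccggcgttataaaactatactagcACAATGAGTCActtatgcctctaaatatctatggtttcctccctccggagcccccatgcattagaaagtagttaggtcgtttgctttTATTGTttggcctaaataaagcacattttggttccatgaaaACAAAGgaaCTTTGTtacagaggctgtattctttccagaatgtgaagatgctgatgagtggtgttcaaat

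By the annotation 6 of these 7 regions are intronic and that of Sox6 +550.2 kb touches an exon. The window of Sox5 +738.6 kb, the most cartilage-gated shared region of Sox5, held an AP-1 and a TEAD match, and that of Sox6 +479.5 kb a RUNX, a TEAD and an E-box match, and neither held a SOX core. Sox5 +742.4 kb held 3 SOX cores, though 103 of its 300 bases lay in the E16.5 peak. Sox6 +94.2 kb held 4 SOX cores and an AP-1 match, which overlaps a core, with 3 bases between the paired cores. The window of Sox6 +550.2 kb is rich in simple repeats and held no match, and 34 and 90 of its bases lay in the E14.5 and E16.5 peaks.

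**Figure D1:**
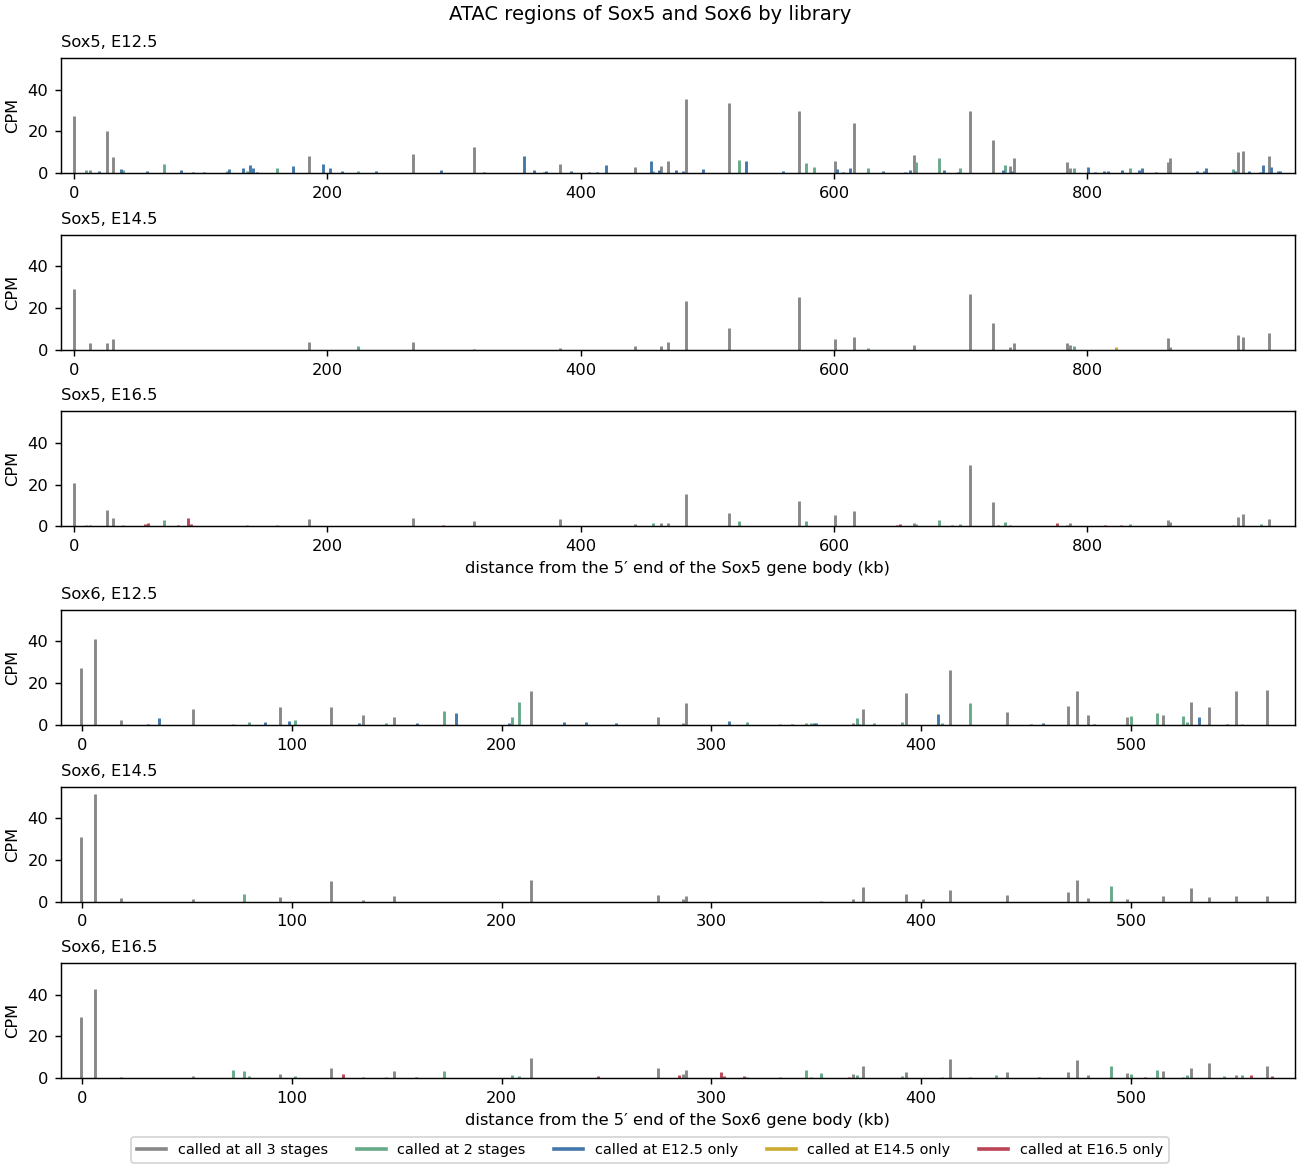
Level of every called region along Sox5 and Sox6 in each library. The x axis gives the distance from the 5′ end of the gene body in kb and the y axis the scaled count (CPM), with 1 vertical line a region, coloured by the stages at which it was called. The tallest lines are called at all 3 stages, and blue lines, called at E12.5 only, are spread along Sox5.

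The 3 libraries held 8294, 20023 and 14048 nuclei and 87048167, 204289151 and 413425059 counts in stage order. The median counts per nucleus were 6003.5, 8575 and 26694. From 151 to 401 barcode sequences were shared by each pair of libraries. With 1 library a stage no replicate error could be had, so no test was run, and each interval below is a 95% interval for counting error only. Of the marker lists of other cell types, 4 of 5 myogenic, 4 of 4 endothelial, 4 of 4 Schwann and melanocyte, 3 of 4 epithelial and 1 of 3 erythroid genes had a region called at all 3 stages. Gene sums over such regions cover 15916 genes, and no share of all genes stands beside these counts. They cannot be read as a sign of those cell types. The summed myogenic level was 79.4, 50.4 and 62.5 CPM in stage order, and Myf5, Krt5, Gata1 and Hbb-bt had no such region. The 5 fibrogenic markers summed to 71.7 CPM at E12.5, then 86.5 and 196 CPM. In CPM 5 of 5 were at least 2 times higher at E16.5 than at E12.5, against 2.25% of 15916 genes. After division by called width their log2 ratios ran from 0.26 for Postn to 1.16 for Clec3b. Clec3b alone was then at least 2 times higher, against 0.421% of genes, with Dpt next at 0.82. The part of these markers in the values below was not tested.

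Sox5 was covered most densely at E12.5. In stage order it carried 121, 33 and 65 peaks, or 12.7, 3.46 and 6.82 peaks per 100 kb of gene body. Sox6 held 79, 32 and 70 peaks, or 13.9, 5.63 and 12.3 per 100 kb. Both genes thus had their fewest peaks at E14.5, and the whole series did too, with 190443, 102459 and 213613 peaks. Peaks were called in each library alone, and depth and called width differed between libraries.

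Of the 141 Sox5 regions, 73 were called at E12.5 only, 51.8%, against 19.5% of all 260778 autosomal regions. Among 467 autosomal protein-coding genes with at least 50 regions, Sox5 had the 7th largest share of such regions, where the median gene had 19.7%. Sox6 had 27 of 95 regions called at E12.5 only, 28.4%, which ranked 104 of the same 467 genes. The E12.5-only peaks of Sox5 were weak, open in a median of 0.518% of nuclei, against 3.32% for its peaks called at all 3 stages. When peaks open in under 1% of nuclei were left out everywhere, 18 of 71 Sox5 regions and 5 of 62 Sox6 regions formed from the other peaks were E12.5-only, against 5.28% of all regions. The share at Sox5 was thus above that of the series among the stronger peaks too.

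The E12.5-only peak of Sox5 seen in most nuclei was the intronic element +355.0 kb, open in 3.17% of E12.5 nuclei (95% exact binomial interval 2.8 to 3.57%). The intronic elements +455.3 kb and +530.7 kb of Sox5 were open in 2.44% (2.11 to 2.79%) and 2.31% (2 to 2.66%). At Sox6 the leading E12.5-only elements were +178.4 kb, open in 2.36% of nuclei (2.05 to 2.71%), +408.1 kb in 2.16% (1.86 to 2.49%) and +532.2 kb in 1.62% (1.36 to 1.91%). All 6 are intronic, and +178.4 kb also holds the start of a coding transcript of Sox6. A region missing from a list is a region not called there, and its level in that library was not analysed here.

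Elements called at E16.5 only made up a smaller share of both genes than of the series. They numbered 19 of 141 at Sox5 and 15 of 95 at Sox6, or 13.5% and 15.8%, against 27.4% of all regions. The leading elements of Sox5 were +90.3 kb, open in 3.94% of E16.5 nuclei (3.63 to 4.28%), +776.0 kb in 1.86% (1.64 to 2.1%) and +59.0 kb in 1.85% (1.63 to 2.09%), of which +59.0 kb lies at the start of the non-coding gene Sox5os5 and +90.3 kb within Sox5os3. At Sox6 they were +304.4 kb, open in 3.23% (2.95 to 3.54%), +124.4 kb in 2.03% (1.8 to 2.28%) and +284.4 kb in 1.92% (1.7 to 2.16%). A single region was called at E14.5 only, Sox5 +823.0 kb, open in 0.814% of nuclei (0.694 to 0.948%), and none of Sox6, against 0.257% of all regions. The other 46 regions were called at 2 stages and 55 at all 3. Those called at all 3 were 28 at Sox5 and 27 at Sox6, 19.9% and 28.4%, against 31.8% of all regions. At E12.5 and E16.5 alone, 17 Sox5 and 23 Sox6 regions were called, 12.1% and 24.2% of each gene's, against 17.2%. These 55 shared regions carry the comparisons of level between stages.

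Most shared elements of both genes were lower at E16.5 than at E12.5. Levels are given in CPM, the counts in a region scaled to 1000000 counts in all autosomal shared regions of the library. At Sox5, 19 of 28 shared regions were at least 2 times lower at E16.5 than at E12.5, against 16.5% of 82828 shared regions with counts at both stages, and none was at least 2 times higher, against 18.4%. At Sox6, 14 of 27 were lower and 1 was higher. The median log2 ratio of E16.5 over E12.5 was -1.21 at Sox5 and -1.02 at Sox6, beside -0.01 over all shared regions and -0.00 over all intronic ones. All 28 Sox5 regions had a ratio below 1, in 26 of them with an interval that excluded no change. At Sox6, 22 of 27 regions had a ratio below 1, each with such an interval, and 3 of the other 5 had intervals above 1. Per kb of called width the ratio was below 1 in 27 Sox5 and 23 Sox6 regions. The share of all shared regions with such ratios or intervals was not computed, so these counts cannot be set against the series.

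Ranked by the median of their shared intronic regions, Sox5 was 15th and Sox6 18th from the bottom of 659 genes with at least 10 such regions. Peaks at E12.5 were wider, 42792 bp in all over the Sox5 shared regions against 31139 bp at E16.5, and 42374 bp against 36382 bp at Sox6. Per kb of called width the medians were -0.84 and -0.72, against -0.17 over all regions, and the genes ranked 9th and 3rd by their intronic regions. Per kb, 11 of 28 and 10 of 27 regions were at least 2 times lower, against 10.4% of all. In the 16 Sox5 and 10 Sox6 regions whose peaks matched in position, 9 and 3 were at least 2 times lower, against 12.3% of all matched regions.

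In CPM, levels were lower at E14.5 as well. Per kb of called width the medians of both genes were not lower than at E12.5, but stayed below that of all regions. At E14.5, 11 of 28 Sox5 and 11 of 27 Sox6 regions were at least 2 times lower than at E12.5, against 20.5% of all, with medians of -0.72 and -0.81 beside -0.19 over all and -0.39 over intronic regions. None of Sox5 and 1 of Sox6 was at least 2 times higher, against 10.5%. From E14.5 to E16.5, 6 Sox5 and 2 Sox6 regions were at least 2 times lower, against 6.91%, and 3 and 2 were higher, against 19.8%. Per kb this step had 13 and 9 lower, against 17.3%, and none higher in either gene, against 0.827%. The E14.5 counts lay more in promoters, with a median promoter share of 53.8% per nucleus against 46.7% and 48.4% at E12.5 and E16.5. Per kb the medians of E14.5 over E12.5 were 0.03 at Sox5 and 0.15 at Sox6, beside 0.39 over all regions, and none of either gene was 2 times lower, where the called width of the shared regions was 22692 bp at Sox5 and 21841 bp at Sox6 in the E14.5 library. The part of width in the E14.5 values was not tested.

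**Figure D2:**
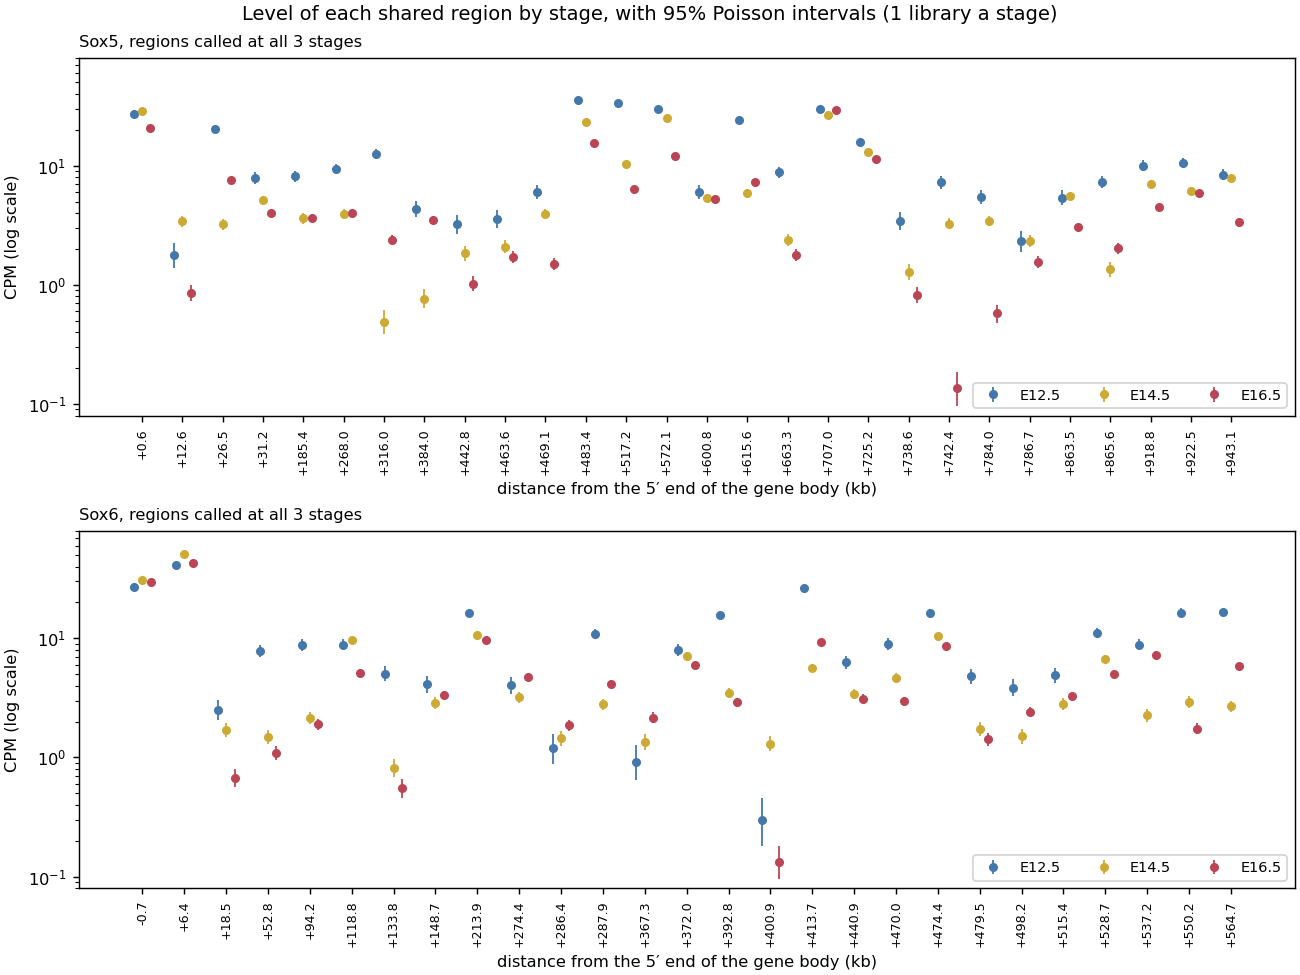
Level of each shared region of Sox5 (top) and Sox6 (bottom) in the 3 libraries. Regions stand in order of their distance from the 5′ end of the gene body, the y axis is CPM on a log scale, points are 1 library each and bars 95% Poisson intervals. Most E16.5 points lie under the E12.5 points, while Sox5 +707.0 kb and Sox6 +6.4 kb lie at about the same CPM in both.

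Among the elements of Sox5, +517.2 kb (chr6:144264078-144265555) was at 33.8 CPM at E12.5 (32 to 35.7), then 10.4 at E14.5 and 6.35 at E16.5 (5.98 to 6.74). This intronic element was among the highest of the gene at E12.5 and was 5.32 times lower at E16.5, a log2 ratio of -2.41 (-2.53 to -2.29), with peaks that matched in position at all 3 stages. Element +742.4 kb was at 7.24, 3.26 and 0.135 CPM and had the lowest ratio of all, -5.74, but its E16.5 peak was 103 bp wide against 985 bp at E12.5, and per kb the ratio was -2.48. Element +784.0 kb was at 5.46, 3.44 and 0.575 CPM, a ratio of -3.25 and of -1.24 per kb. Elements +316.0 kb and +663.3 kb completed the 5 largest falls with ratios of -2.40 and -2.31, or -0.82 and -1.37 per kb. Of these 5, +517.2 kb moved least when width was taken into account.

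Element +707.0 kb had the smallest fall of Sox5 in CPM. It was at 29.8 CPM at E12.5 (28 to 31.6), then 26.7 at E14.5 and 29.1 at E16.5 (28.3 to 30), with a log2 ratio of -0.03 (-0.13 to 0.06). It became the most open Sox5 element at E16.5, in 26.1% of nuclei. Its E16.5 peak was 1892 bp wide against 1477 bp at E12.5, and per kb its ratio was -0.39. Element +600.8 kb, with a ratio of -0.18 (-0.40 to 0.03), was the other Sox5 region whose interval held 0. Elements +384.0 kb, +0.6 kb and +725.2 kb followed with ratios of -0.30, -0.40 and -0.46. Per kb +600.8 kb was at -0.01 and +0.6 kb at 0.23, both nearer to no change than +707.0 kb.

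At Sox6 the element +550.2 kb, which touches an exon, was at 16.4, 2.92 and 1.74 CPM over the 3 stages, a log2 ratio of -3.24, with E12.5 called 2379 bp wide and E16.5 594 bp, and -1.24 per kb. The intronic elements +133.8 kb and +52.8 kb had ratios of -3.19 and -2.83. Element +392.8 kb was at 15.6, 3.5 and 2.92 CPM, a ratio of -2.42 (-2.59 to -2.24). Element +94.2 kb was at 8.81, 2.15 and 1.9 CPM, a ratio of -2.21. These 5 were lower per kb as well, from -1.91 to -1.24. The single Sox6 element at least 2 times higher was +367.3 kb, at 0.919 CPM at E12.5 (0.65 to 1.26), then 1.36 at E14.5 and 2.15 at E16.5 (1.94 to 2.38), a ratio of 1.23 that was 0.23 per kb. Element +286.4 kb, at 1.19, 1.44 and 1.86 CPM, had a ratio of 0.64, and +274.4 kb one of 0.22 with an interval that held 0 (-0.02 to 0.48). Per kb +286.4 kb was at 0.13, while +274.4 kb turned to -0.53.

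The promoters of the 2 genes did not follow a common course. Sox6 +6.4 kb, at the start of the coding transcripts Sox6-202 and Sox6-210 and of the non-coding gene Sox6os, was at 41.3 CPM at E12.5 (39.3 to 43.5), then 51.4 at E14.5 and 42.5 at E16.5 (41.5 to 43.5). Sox6 -0.7 kb, at the 5′ end and the start of the coding transcript Sox6-204, was at 27.2, 30.9 and 29.4 CPM, and the region also overlaps the gene 1110004F10Rik on the other strand. Both had E16.5 levels within 0.12 of those at E12.5 on the log2 scale. Sox6 +213.9 kb, the start of the shorter coding transcript Sox6-205, was lower, at 16.3 CPM (15 to 17.6), 10.6 and 9.65 (9.19 to 10.1), though per kb its ratio was -0.08.

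The main coding promoter of Sox5, +572.1 kb, holds the starts of Sox5-201, Sox5-202, Sox5-205 and Sox5-214. It was at 29.8 CPM at E12.5 (28.1 to 31.6), then 25 at E14.5 and 12.1 at E16.5 (11.6 to 12.7). This is 2.46 times lower, a log2 ratio of -1.30 (-1.40 to -1.19) and -0.86 per kb. Sox5 +0.6 kb, where the non-coding transcripts Sox5-209 and Sox5-212 start at the far 5′ end, was at 27.4, 29 and 20.7 CPM, a ratio of -0.40 that was 0.23 per kb. Sox5 +578.3 kb, at the starts of the non-coding transcripts Sox5-207 and Sox5-208, was called at E12.5 and E16.5 at 4.73 and 2.5 CPM. The weak region +103.0 kb at Sox5os3 was called at E12.5 only, at 0.716 CPM.

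To ask in which nuclei the elements were open, nuclei were split by a count at Acan, Col2a1 or Col9a3, genes of the cartilage matrix. Each nucleus was first thinned to 1096 fragments in shared regions, which left out 2071, 0 and 252 shallower nuclei in stage order. After thinning 958 of 6223, 3001 of 20023 and 2023 of 13796 nuclei had such a count, 15.4%, 15.0% and 14.7%. A count at 1 locus marks a group enriched for, and not made of, cartilage cells. Of 14 other chondrogenic genes, among them Matn1, Chad, Col11a2 and Sox9, 0, 1 and 8 were at least 1.5 times more open in nuclei with a count in stage order, and 5, 14 and 14 lay above 1. Their median folds were 0.969, 1.18 and 1.72. No share of all genes stands beside these counts, so they cannot be set against the series. At 1.5 the split separated none of these genes at E12.5 and 1 at E14.5. The values for Sox5 and Sox6 at those stages are to be read beside that. The nuclei with and without a count had median totals of 8348 and 8611 counts at E12.5, 9130 and 8469.5 at E14.5 and 25206 and 27513 at E16.5, with promoter shares of 50.1% and 48.2% at E16.5, whose part in the folds was not tested. At E16.5 Sox10, a factor of Schwann cells and melanocytes, had a summed fold of 1.58 (1.36 to 1.83), and the 4 genes of its list had a median of 1.08, with none below 1. None of the tenogenic, myogenic, endothelial, epithelial, erythroid and fibrogenic markers passed 1.5, and the 5 fibrogenic ones ran from 0.736 to 0.885. The part of Schwann cells or melanocytes in the folds of Sox5 and Sox6 was not tested.

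At E16.5 a subset of elements in both genes was far more open in the nuclei with a cartilage-locus count. For Sox5, 6 of 27 shared regions with at least 10 expected fragments were at least 1.5 times more open, and for Sox6 9 of 26, against 4.54% of 82460 shared regions. At E14.5 the counts were 2 of 28 and 5 of 27, against 2.08%, and at E12.5 1 of 28 and 0 of 24, against 2.51%. The median fold over the tested members rose from 1.03 and 1.09 at E12.5 to 1.14 and 1.33 at E16.5 for Sox5 and Sox6, beside 0.994 and 0.985 over all regions.

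**Figure D3:**
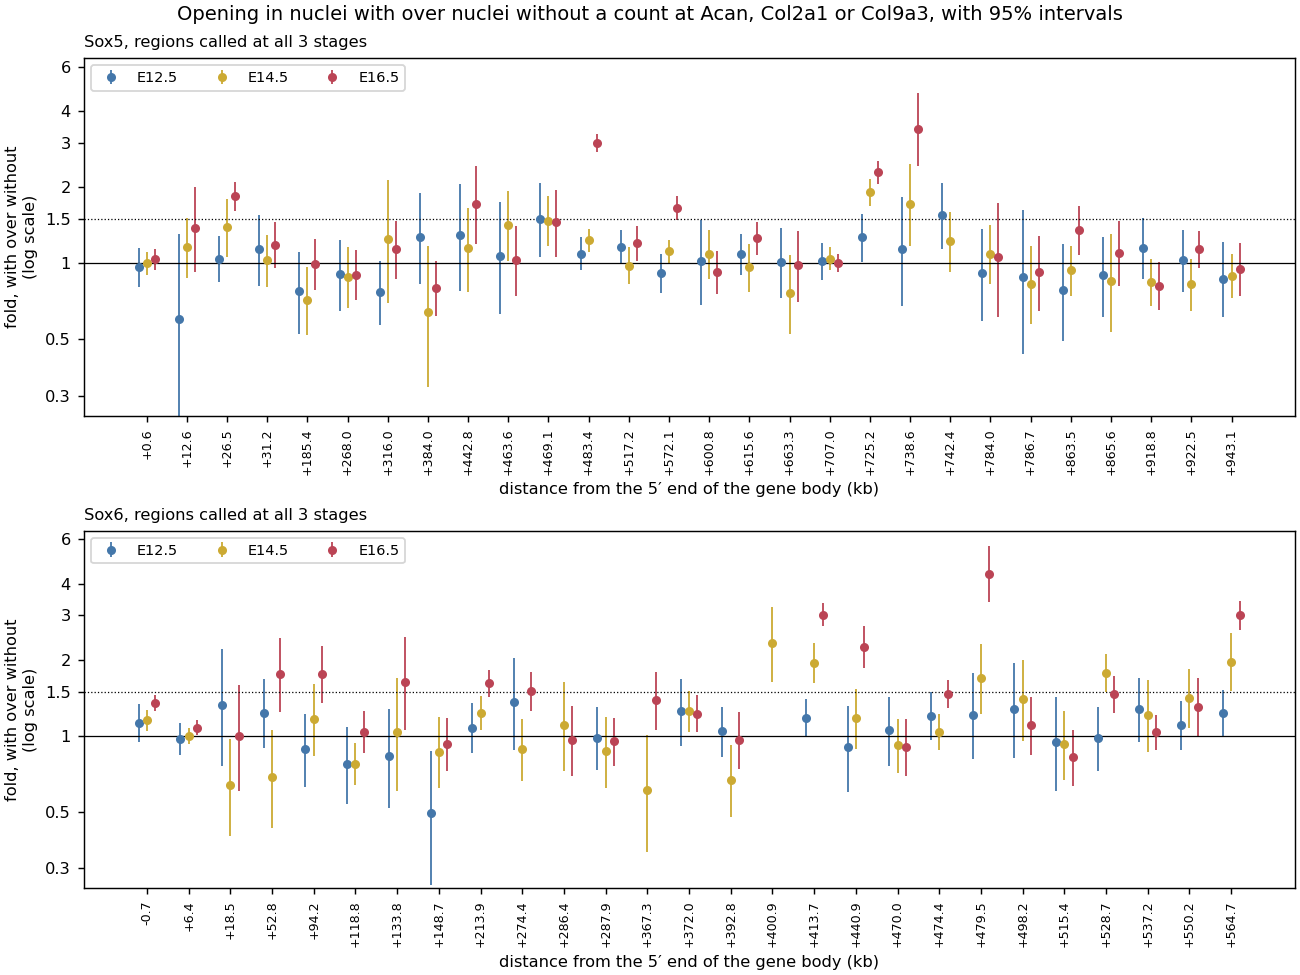
Fold of opening in nuclei with over nuclei without a count at Acan, Col2a1 or Col9a3, for each shared region of Sox5 (top) and Sox6 (bottom). Regions stand in order of distance from the 5′ end of the gene body, the y axis is a log scale, colours give the stage, bars are 95% intervals and the dotted line is a fold of 1.5. Sox5 +483.4 kb and Sox6 +479.5 kb lie near 1 at E12.5 and at 2.99 and 4.39 at E16.5. The median fold at E16.5 was 1.14 over the Sox5 and 1.33 over the Sox6 regions tested.

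Of the 3 shared Sox5 elements with a fold past 2 at E16.5, the one with the highest level was the intronic element +483.4 kb (chr6:144297052-144300148). In nuclei with a cartilage-locus count it was at 38.4, 27.6 and 35.8 CPM over the 3 stages, and in the other nuclei at 35.1, 22.3 and 12 CPM. Its fold was 1.09 (0.938 to 1.27), 1.24 (1.11 to 1.37) and 2.99 (2.75 to 3.24). In CPM the level in the gated nuclei was lower at E14.5 and back near that of E12.5 at E16.5. Its log2 ratio of E16.5 over E12.5 was -0.10 (-0.32 to 0.13). In the others the level was lower at each stage, with a ratio of -1.55 (-1.66 to -1.44). These ratios are in CPM and were not divided by called width. Over all nuclei the ratio of the element was -1.206 in CPM and -1.415 per kb, its E16.5 peak being called wider than that of E12.5. Called widths are the same for gated and other nuclei, so per kb the ratio of the gated nuclei also lies lower, below -0.10.

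Element +725.2 kb of Sox5 was at 18.9, 21.6 and 22.1 CPM with a count and 14.9, 11.3 and 9.65 without. Its folds were 1.27 (1.02 to 1.57), 1.91 (1.68 to 2.16) and 2.29 (2.07 to 2.54). The E14.5 value was above that of +483.4 kb and the highest of the Sox5 shared regions at that stage. The weak element +738.6 kb had the largest fold among the shared regions of the gene at E16.5, 3.41 (2.44 to 4.73), from 58 and 109 fragments, after 1.14 and 1.72. Its E16.5 fold was 2.47 with Col2a1 alone and 6.79 when taken from shares of thinned nuclei. The coding promoter +572.1 kb went from 0.914 (0.765 to 1.09) through 1.12 to 1.66 (1.49 to 1.85), at 18.4 CPM with and 11.1 without a count at E16.5. Elements +26.5 kb and +442.8 kb had folds of 1.84 (1.62 to 2.1) and 1.73 (1.2 to 2.44) at E16.5. The first was 1.26 with Acan alone, and the second 1.4 with another seed and 0.529 when taken from shares of nuclei thinned to 1 depth. With Acan alone the folds of +725.2 kb were 0.709, 1.24 and 2.08 in stage order. At E12.5 the single shared Sox5 region past 1.5 was +742.4 kb, at 1.55 (1.14 to 2.09), and it was too sparse to be tested at E16.5. Its fold was 1.34 with another seed and 1.16 with Col2a1 alone, where +469.1 kb stood at 1.53, so that this call depends on the setting.

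Among the shared regions of Sox6 the largest fold was that of the intronic element +479.5 kb. It was at 5.73, 2.64 and 4.21 CPM in nuclei with a count and at 4.73, 1.56 and 0.959 CPM in the others. The fold was 1.21 (0.809 to 1.77), 1.7 (1.22 to 2.32), or 1.2 with Col2a1 alone, and 4.39 (3.4 to 5.65). The stronger element +413.7 kb (chr7:115623785-115626481), at 30.3, 9.6 and 21.7 CPM with and 25.7, 4.91 and 7.16 without a count, had folds of 1.18 (0.991 to 1.4), 1.95 (1.63 to 2.34) and 3.03 (2.72 to 3.37). Element +564.7 kb, which touches an exon near the 3′ end, had folds of 1.24 (0.996 to 1.52), 1.96 (1.5 to 2.55) and 3.01 (2.63 to 3.43), the last being 1.66 with no thinning before the split. These 3 elements and +440.9 kb, at 2.25 (1.85 to 2.72) after 0.903 and 1.18, lie in the 3′ part of the gene. Element +440.9 kb also touches the start of the non-coding transcript Sox6-215, found in the full annotation alone. With Acan as the single gating locus the fold of +440.9 kb at E16.5 was 1.2, and that of +413.7 kb at E14.5 was 0.984.

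The other 5 shared Sox6 regions past 1.5 at E16.5 had smaller folds, +52.8 kb and +94.2 kb at 1.76, +133.8 kb at 1.63, the promoter +213.9 kb at 1.62 (1.43 to 1.82) and +274.4 kb at 1.51. Element +52.8 kb was at 1.33 with another seed, which ends its call. Just under the threshold stood +474.4 kb at 1.47 (1.29 to 1.67) and +528.7 kb at 1.46. The promoters at the 5′ end had folds of 1.36 (1.26 to 1.46) for -0.7 kb and 1.08 (1.01 to 1.15) for +6.4 kb. Sox5 +707.0 kb, with the smallest fall in CPM, had folds of 1.02, 1.04 and 1 (0.926 to 1.09). At E14.5 the sparse Sox6 element +400.9 kb had the highest fold of the shared regions, 2.32, or 1.46 with no thinning and 1.53 with Col2a1 alone. It was followed by +564.7 kb, +413.7 kb, +528.7 kb at 1.78, or 1.26 with Acan alone, and +479.5 kb.

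Taking 2 or 3 of the loci at each library's own depth raised the leading folds at E16.5. They were 5.73 for Sox5 +483.4 kb, 4.68 for +725.2 kb and 6.54 for +738.6 kb, and 13.3 for Sox6 +479.5 kb, 6.20 for +413.7 kb, 5.61 for +564.7 kb and 5.56 for +440.9 kb. This split was chosen after the data had been seen and rests on 1289 nuclei with counts at 2 or 3 loci.

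The stage ratios were also taken within the gated nuclei, where the gap between the ratios with and without a count restates the change in fold given above and is no separate result. All of these ratios are in CPM and were not divided by called width. Over the 27 Sox5 regions with enough fragments at both stages the median log2 ratio was -0.87 in nuclei with a cartilage-locus count and -1.22 in the others, and 12 against 17 regions were at least 2 times lower. Over 24 Sox6 regions the medians were -0.60 and -1.26, with 8 against 13 at least 2 times lower. Over 73274 shared regions the medians were -0.07 with and -0.10 without a count, and 17.8% and 17.9% were at least 2 times lower. Sox6 +440.9 kb had 0.02 (-0.53 to 0.62) with a count and -1.29 (-1.54 to -1.04) without, and Sox5 +725.2 kb 0.23 (-0.08 to 0.55) and -0.62 (-0.78 to -0.47). Sox5 +517.2 kb was lower in both, at -2.36 (-2.66 to -2.07) and -2.41 (-2.54 to -2.28).

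Nuclei were split in the same way by the tenogenic loci Tnmd, Thbs4 and Kera, the dermal fibrogenic loci Col7a1, Rspo1 and Irx1, the fibrogenic loci Postn, Cd34 and Dpt, and the housekeeping loci Actb, Gapdh and Eef1a1. Another seed and single loci were tried for the cartilage gate alone, and calls near 1.5 in these other gates are to be read beside that. In the dermal fibrogenic gate at E16.5, 1 of 27 Sox5 and 5 of 26 Sox6 regions were at least 1.5 times more open, against 4.75%. The Sox6 elements were +392.8 kb at 1.86 (1.44 to 2.37), +498.2 kb at 1.74 (1.31 to 2.28), +515.4 kb at 1.7 (1.33 to 2.16), +148.7 kb at 1.58 (1.23 to 2.01) and +537.2 kb at 1.52 (1.28 to 1.81), whose cartilage folds ran from 0.823 to 1.1. The Sox5 element was +786.7 kb at 1.78 (1.25 to 2.47). At E12.5, 1 of 23 Sox5 and 0 of 23 Sox6 regions passed 1.5 in this gate, against 3.33%, and at E14.5 0 of 26 and 2 of 26, against 2.8%.

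In the tenogenic gate at E16.5, 2 of 26 Sox5 and 4 of 24 Sox6 regions passed 1.5, against 2.34%. They were Sox5 +31.2 kb at 1.72 (1.34 to 2.19) and +463.6 kb at 1.52 (1.01 to 2.21), and Sox6 +274.4 kb at 1.94 (1.56 to 2.39), +528.7 kb at 1.77 (1.41 to 2.18), +474.4 kb at 1.6 (1.34 to 1.9) and +470.0 kb at 1.51 (1.11 to 2.01). At E14.5 none of 26 regions of either gene passed, against 2.59%. At E12.5, 3 of 23 Sox5 and 1 of 22 Sox6 regions did, against 4.26%. Element +31.2 kb was among them, at 1.69 (1.13 to 2.46).

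Of the 15 elements past 1.5 in the cartilage gate at E16.5, Sox6 +274.4 kb also passed in the tenogenic gate and none in the dermal fibrogenic gate. Over all shared regions past 1.5 in the cartilage gate, 3.63% passed in the tenogenic and 1.06% in the dermal fibrogenic gate, so the small overlap is not a result about these genes. At E16.5 the fibrogenic gate held none of either gene past 1.5, against 0.357%, and its median fold was 0.936 over Sox5 and 0.808 over Sox6 regions. Elements +528.7 kb and +413.7 kb of Sox6 were at 0.531 and 0.643 there. At E14.5 this gate held 0 of 26 regions of each gene, against 2.78%, and at E12.5 2 of 21 Sox5 and 1 of 17 Sox6 regions, against 3.58%. The housekeeping gate served as a control at E16.5, with 0.0653% of all regions past 1.5, medians of 0.951 and 0.985 for the 2 genes, and 2 sparse Sox5 regions, +742.4 kb and +738.6 kb, at 1.55 and 1.51. For +738.6 kb this stands beside its cartilage fold of 3.41.

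**Figure D4:**
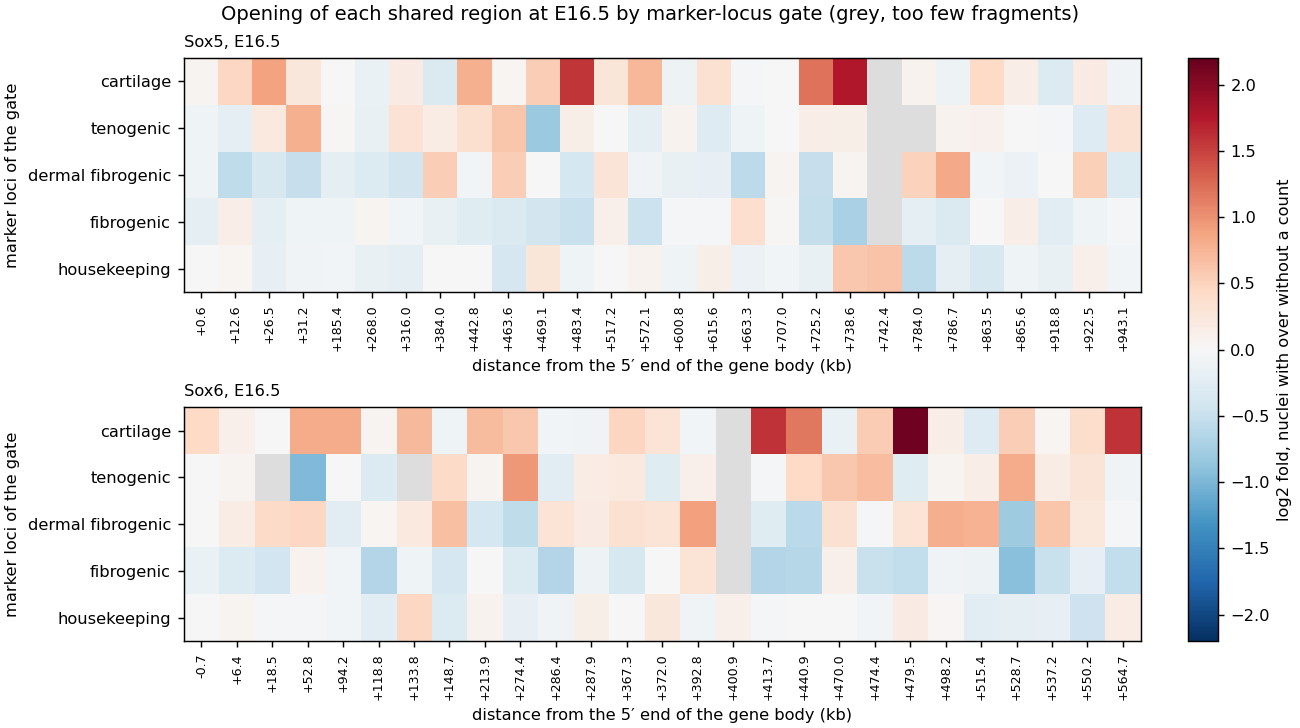
Fold of opening at E16.5 for each shared region of Sox5 (top) and Sox6 (bottom) under 5 gates. Columns are regions by distance from the 5′ end in kb, rows the marker loci that split the nuclei, and colour the log2 fold of nuclei with over nuclei without a count, red for higher. The deepest reds stand in the cartilage row, at Sox5 +483.4, +725.2 and +738.6 kb and Sox6 +413.7, +440.9, +479.5 and +564.7 kb, and other Sox6 columns are red in the dermal fibrogenic or tenogenic row.

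At E16.5 elements outside the shared set showed the same kind of split. Of the E16.5 regions called at fewer than 3 stages with at least 10 expected fragments, 6 of 33 at Sox5 and 14 of 39 at Sox6 were at least 1.5 times more open with a cartilage-locus count, against 6.72% of 114151. The highest were Sox5 +651.9 kb at 5.59 (4.32 to 7.23), called at E16.5 only, and Sox5 +699.4 kb at 5.2 (3.91 to 6.91), called at E12.5 and E16.5. At Sox6 they were +124.4 kb at 5 (3.99 to 6.24) and +506.7 kb at 4.9 (3.44 to 6.97), both called at E16.5 only, and +544.3 kb at 4.44 (3.38 to 5.79). At E12.5 3 of 35 and 1 of 18 such regions of Sox5 and Sox6 passed 1.5, near the 7.05% of all such regions. At E14.5 few could be tested, and 0 of 4 and 0 of 2 passed, against 529 of 9580. The E16.5-only element +124.4 kb was thus among both the most open and the most cartilage-gated of its class, while Sox6 +304.4 kb had a fold of 0.834. These unshared elements beyond the leading peaks were picked for their folds.

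Summed over shared regions, Sox5 went from 348 CPM at E12.5 through 208 to 162 at E16.5, and Sox6 from 287 through 177 to 167. The third SoxD gene, Sox13, was at 46.7, 48.6 and 40.9 CPM, and Sox9, the partner factor, at 80.7, 88.3 and 71.9. These sums run over peaks called in each library alone, so each ratio is given per kb of called width as well. The log2 ratio of E16.5 over E12.5 was -1.10 for Sox5 and -0.78 for Sox6 in CPM, and -0.65 and -0.56 per kb. Sox13 was at -0.19 and -0.20, while Sox9 turned from -0.17 in CPM to 0.36 per kb. Of the 27 genes of the SoxD family and the SOX9 programme, 4 were at least 2 times lower in CPM, Sox5, Col9a1, Snorc and Ucma, against 2.93% of 15916 genes. Per kb they were also 4, against 1.77%, with Col2a1 in place of Sox5. None was at least 2 times higher on either scale, against 2.25% and 0.421%. The list genes nearest in number of shared regions, Bmpr1b with 24 and Runx2 with 23, had ratios of -0.67 and -0.18 in CPM and of -0.36 and -0.37 per kb. In the cartilage gate the summed folds at E16.5 were 1.37 (1.33 to 1.41) for Sox5 and 1.39 (1.35 to 1.43) for Sox6. They were 1.22 (1.16 to 1.28) for Sox9, 1.08 (1.01 to 1.16) for Sox13 and 2.27 (2.13 to 2.42) for Col11a2. The sums of Sox5 and Sox6 average even elements and elements with folds above 3.

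The letters of the elements were searched on both strands of the middle 300 bp of each region. SOX cores were present in 13 of 28 Sox5 and 9 of 27 Sox6 shared regions, 46.4% and 33.3%, against 37.8% of all shared regions. Among the 15 elements past 1.5 in the cartilage gate at E16.5, 4 held a core, 26.7%, which is below the 37.8% of all. Among the 38 under it 17 did, 44.7%. The 4 were Sox5 +572.1 kb with 3 cores, Sox6 +94.2 kb and +213.9 kb with 4 each, and +413.7 kb with 1. An inverted pair was found in Sox6 +94.2 kb alone of the 55, against 0.177% of all shared regions. Outside the shared set Sox6 +423.1 kb, called at E12.5 and E16.5, held a pair as well. AP-1 letters were in 8 of 28 Sox5 and 2 of 27 Sox6 regions, against 10.8%, and stood 2 times in element +707.0 kb. RUNX letters were in 4 and 5, against 20.04%, TEAD letters in 8 and 6, against 19.0%, the E-box in 3 and 5, against 21.0%, and GLI letters in 2 and 0, against 7.45%. Over all shared intronic regions the shares were 41.5% for SOX cores, 12.6% for AP-1 and 22.0% for RUNX. They were 21.1% for TEAD, 21.6% for the E-box and 7.06% for GLI. A match is a match of letters and not a bound site.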

How the data were processed

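Chromatin accessibility was profiled in single nuclei of 3 libraries, 1 a stage. The authors deposited raw counts, unnormalised tallies of cut sites for each peak in each nucleus. Per the labels Cell Ranger ATAC 1.1.0 was used, while the matrix headers give 1.0.1 (E12.5, E14.5) and 1.2.0 (E16.5). Each library had its own peak list, holding positions without scores. All 42365 deposited barcodes were used, more than the study states, and no doublet caller was run.

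Peaks of the 3 lists were merged where they overlapped by at least 1 bp and annotated with the GENCODE vM21 basic set (GRCm38, that is mm10). A region was shared if every library had a peak in it, and matched if its peaks overlapped pairwise by at least 50% of each. CPM used counts in autosomal shared regions as the total. Intervals (95%) were exact Poisson, binomial or conditional binomial on fragment equivalents, counts divided by 2 and rounded up, and cover counting error only. Gates used nuclei with at least 1096 fragment equivalents, the 25th percentile at E12.5, thinned to that number. A nucleus was gated by at least 1 fragment at the loci and levels were read from all of its counts. A region entered a gate where at least 10 fragments were expected in gated nuclei. Stage folds of 2 and gate folds of 1.5 were called, with no test. Named regions were every promoter, the 5 largest falls and rises, the 5 highest gate folds per library and the 3 most open peaks of each single-stage class. Other elements named in the comparison gates or outside the shared set were chosen after their values were seen. The fold computation was tested on simulated data. Members, lists and comparisons were chosen with earlier results of these data known. Python 3.11.15, numpy 2.4.6, pandas 2.3.3 and scipy 1.17.1 were used.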

Additional observations from a re-analysis of the deposited data

How the results depend on the processing

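Counts are given for Sox5 and Sox6 in turn, beside the value reported above, and the cause of a difference was not tested unless the setting itself changes the regions or the threshold. Regions called at E12.5 only (73 and 27) numbered 18 of 71 and 5 of 62 when formed from peaks open in at least 1% of nuclei, and a reciprocal overlap of 50% gave 42 of 79 peaks at Sox6. For those called at E16.5 only (19 and 15), reciprocal overlap gave 33 of 65 and 31 of 70 peaks, and the 1% minimum 23 of 62 regions at Sox6, under the 45.2% of all regions. Reciprocal overlap counts peaks and not regions. Its share over all peaks was not computed at either stage, so its counts cannot be set beside the series. Regions at least 2 times lower at E16.5 than at E12.5 (19 and 14) were 11 at Sox5 per kb of called width, 9 of 16 and 3 of 10 with matched position, and 31 of 45 and 23 of 50, against 19.0% of all, where a peak at both stages was enough. Regions higher (0 and 1) were then 1 and 6, against 20.9%, and at Sox6 0 per kb, 0 of 10 with matched position and 2 at a fold of 1.5, against 6.66%, 8.57% and 26.5%.

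From E12.5 to E14.5, regions lower (11 and 11) were 0 and 0 per kb, against 1.18%, 2 of 16 and 0 of 10 with matched position, against 6.04%, and 18 and 17 at a fold of 1.5, against 33.7%. Regions higher (0 and 1) were 1 at Sox5 with all own peaks, against 12.8%, median ratio scaling, against 12.9%, and per kb, against 13.3%. They were also 1 at Sox5 at a fold of 1.5, against 17.6%, and with shared intron counts as the total, against 14.8%. At Sox6 they were 0 of 10 with matched position, against 7.25%. From E14.5 to E16.5, regions lower (6 and 2) were 13 and 9 per kb, against 17.3%, and 12 and 5 at a fold of 1.5, against 14.1%. At Sox6 they were 1 of 10 with matched position, against 6.92%, and 4 with shared intron counts, against 11.8%. Regions higher (3 and 2) were 0 and 0 per kb and with matched position, against 0.827% and 2.80%. At Sox6 they were 1 with all own peaks, against 14.8%, median ratio scaling, against 16.7%, or shared intron counts, against 13.7%. At a fold of 1.5 they were 5 at Sox6, against 32.4%.

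Cartilage-gate calls at E12.5 (1 and 0) were 0 of 10 and 1 of 10 with Acan alone, against 3.96% of all. With Col9a3 alone they were 0 of 11 and 1 of 10, against 4.25%. By the share of thinned nuclei they were 2 and 2, against 11.7%. At Sox5 the count was 0 at a fold of 2, against 0.156%. At Sox6 it was 2 with no thinning, against 2.22%, and 3 without the deepest 5% of nuclei, against 3.03%. At E14.5 (2 and 5) they were 0 of 18 and 0 of 12 with Acan alone, against 2.65%, and 0 and 1 at a fold of 2, against 0.369%. At Sox5 they were 4 with another seed, against 2.28%, and 5 of 20 with Col9a3 alone, against 6.16%. By the share of thinned nuclei they were 4 at Sox5, against 6.54%. At own depth with 2 or 3 loci they were 5 of 19 there, against 6.86%. At Sox6 they were 0 of 2 with 2 or 3 loci, against 3.89%, and 3 with no thinning, against 1.81%. At E16.5 (6 and 9) they were 3 and 4 at a fold of 2, against 1.68%, and 11 of 27 at Sox5 at own depth, against 9.92%. At Sox6 they were 4 of 6 with 2 or 3 loci, against 8.72%, and 2 of 17 with Acan alone, against 4.55%. The fold of Sox5 +442.8 kb at E16.5 turned to 0.529 by the share of thinned nuclei, and that of Sox6 +413.7 kb at E14.5 to 0.984 with Acan alone. The other 122 recomputed counts stayed within 1.5 times. Of the values of single regions, 347 moved by less than their interval and 122 by more, with the 2 folds just named counted apart. Some of these values also changed direction, such as the log2 ratio of Sox5 +0.6 kb, from -0.40 in CPM to 0.23 per kb. That of Sox6 +274.4 kb went from 0.22 in CPM to -0.53 per kb. Shared intron counts, a peak at both stages and own depth were chosen after seeing the data. No paired analysis was possible because each stage had 1 library.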
